A study of Mus musculus with 12 samples.

Results

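Transcripts of the NRF2 and antioxidant enzyme set were measured in primary mouse embryonic fibroblasts, which are cultured straight from embryos and have not been immortalised. The set had 10 genes, chosen by name: Hmox1, Nqo1, Gclc, Gclm, Txnrd1, Srxn1, Gsr, Prdx1, Sod1 and Sod2. A probe set (the group of short probes that reads out 1 transcript on an Affymetrix array) was taken where the platform annotation gave it exactly 1 of these symbols. By this rule 9 of the 10 genes, of 12393 genes in all, were measured, by 19 of the 22626 probe sets tested. The 5 probe sets carrying the symbol of Prdx1 also carry Gm21399, so no value is given for Prdx1. Every gene is described by its probe set of highest mean level over the 12 arrays, and its further probe sets are given beside it.

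The fibroblasts came from wild-type (WT) mice or from HtrA2 knockout (KO) mice, in which HtrA2, a protease found between the mitochondrial membranes, is missing. The labels name no allele, no number of embryos and no pooling. All cultures were at passage 4 and were kept for 4 h with vehicle or with rotenone at 1 µM, a compound that blocks complex I of the respiratory chain. The 4 groups were therefore WT with vehicle, WT with rotenone, KO with vehicle and KO with rotenone, with 3 arrays each numbered 1 to 3 in the titles. Nothing in the labels says that these are separate cultures, so the p-values measure only how far these samples spread, and that spread may be technical. For the WT rotenone arrays the genotype field says knockout while the title, source and description say WT, and they were treated as WT.

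The main Htra2 probe set read 9.04, 8.83 and 9.32 on the log2 scale in WT vehicle, 9.09, 9.02 and 9.14 in WT rotenone, 7.57, 7.57 and 7.87 in KO vehicle and 7.66, 7.82 and 7.81 in KO rotenone. The 6 WT arrays, those with the conflicting field included, all lay above the 6 KO arrays, with a KO minus WT difference of -1.39 in vehicle and -1.32 in rotenone (limma, adjusted p = 0.0032 and 0.00577). A second, dimmer Htra2 probe set was not lower in KO cells (0.32 over both treatments, adjusted p = 0.809). Array medians were 7.53 to 7.58. The first principal component held 44.7% of the variance and separated the 4 arrays numbered 3 (scores 22.6 to 30.9) from the other 8 (-20.1 to -5.69). All 13 fibroblast markers examined lay above the 40th percentile of mean levels and 10 above the 75th. In whole cultures such as these, fewer cells of a type and less RNA per cell cannot be told apart.

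NRF2, encoded by Nfe2l2, is a transcription factor that is normally held by KEAP1 and degraded. Oxidants and electrophiles modify cysteines of KEAP1, NRF2 then accumulates, pairs with a small MAF protein and binds antioxidant response elements in the DNA near its targets. Those targets make glutathione, reduce oxidised thioredoxin and peroxiredoxin, break down heme and detoxify quinones. The superoxide dismutases act upstream of these enzymes, turning superoxide into hydrogen peroxide, Sod1 mainly in the cytosol and Sod2 in the mitochondrial matrix. Inhibition of complex I is known to raise the formation of superoxide in mitochondria.

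Promoter sequences were taken from RefSeq (GRCm38.p6), in windows from 250 bases before to 50 bases after a start site. They matched 6 of the 9 genes: Nqo1, Gclm, Txnrd1, Srxn1, Sod1 and Sod2. Both strands were searched for the core of the antioxidant response element, TGACNNNGC, which occurred in 4 of the 8 windows of these genes, each of a different gene, and in 12.4% of all 32851 windows. These 4 matches are shown because they are the letters through which NRF2 is known to act, with the match in capitals and 10 bases on either side. Each is written 5′ to 3′ on the strand of its gene, and since each match lies on the opposite strand, it reads in reverse complement. The windows are, in order, chr3:122245413-122245441, chr10:82859104-82859132, chr2:152105542-152105570 and chr16:90220696-90220724, all of genes on the plus strand. Counting the start site as 1 and the base before it as -1, the matches begin at -134, -92, 29 and -56.
Gclm: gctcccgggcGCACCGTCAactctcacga
Txnrd1: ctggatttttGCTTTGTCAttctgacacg
Srxn1: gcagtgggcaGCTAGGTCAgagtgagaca
Sod1: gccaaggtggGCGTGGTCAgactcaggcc
The match of Txnrd1 was in 1 of its 3 windows. A match is a description of letters and not a site of binding.

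Srxn1 and Nqo1 are shown over the whole 250 bases before their start sites, because Srxn1 was called for rotenone on its main probe set and Nqo1 had a genotype difference that depended on the replicate number. The letters of TGACTCA, the classical AP-1 element, were searched on both strands and were found in 5.2% of all windows. Of the 6 genes with a window only Srxn1 held them, at -102 to -96 and -45 to -39, on the strand opposite to the gene and apart from its TGACNNNGC match. Srxn1 lies on the plus strand at chr2:152105274-152105523, and its capitals mark these matches. Nqo1 lies on the minus strand at chr8:107403206-107403455 and held neither motif in this window.
Srxn1: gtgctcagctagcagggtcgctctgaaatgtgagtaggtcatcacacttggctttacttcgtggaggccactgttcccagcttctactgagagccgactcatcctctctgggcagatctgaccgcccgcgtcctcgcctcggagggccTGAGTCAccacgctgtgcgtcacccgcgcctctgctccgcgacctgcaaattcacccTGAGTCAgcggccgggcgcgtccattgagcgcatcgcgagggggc
Nqo1: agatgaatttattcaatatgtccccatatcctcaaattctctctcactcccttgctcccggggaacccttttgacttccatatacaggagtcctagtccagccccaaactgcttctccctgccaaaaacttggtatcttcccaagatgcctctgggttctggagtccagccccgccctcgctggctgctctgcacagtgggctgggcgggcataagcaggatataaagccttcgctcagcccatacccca
That no letters matched in the window of Nqo1 says nothing of elements outside it.

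The first comparison asked which of these transcripts differed after rotenone. Hmox1 was higher with rotenone in every same-numbered pair of arrays and Srxn1 lower in every pair, while the other genes moved little or in mixed directions. In the fit of 4 group means, none of the 9 genes passed an adjusted p of 0.05 (limma), against 0.217% of all probe sets. In that fit 2 of the 9 had an unadjusted p under 0.05, against 7.9% of all probe sets. With the replicate number as a block in the fit, Hmox1 rose and Srxn1 fell, which makes 2 of 9 genes called against 2.46% of all probe sets (1.33% higher and 1.13% lower). The median difference of the 9 genes was -0.01 on the log2 scale, and that of all genes 0.03.

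Hmox1 encodes heme oxygenase 1, which breaks heme down to biliverdin, iron and carbon monoxide. In the order of replicates 1, 2 and 3 its log2 level was 10.87, 10.72 and 9.81 in WT vehicle and 11.38, 11.32 and 10.39 in WT rotenone. It was 10.57, 10.49 and 9.79 in KO vehicle and 11.13, 10.97 and 10.29 in KO rotenone. Replicate 3 was the lowest of its group in all 4 groups, so that the groups overlapped even though each rotenone array exceeded the vehicle array of its own number. The 6 paired differences lay between 0.49 and 0.60. Group means ran from 11.03 ± 0.55 (SD, n = 3) in WT rotenone through 10.80 ± 0.44 in KO rotenone and 10.47 ± 0.57 in WT vehicle to 10.28 ± 0.43 in KO vehicle, and no neighbours in this order differed beyond these SDs.

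The mean rotenone effect on Hmox1 was 0.54, or 1.45-fold, with a 95% interval of 0.01 to 1.07 without the block (SE 0.24, limma adjusted p = 0.625). With the block the interval was 0.40 to 0.68 (SE 0.06, adjusted p = 0.000342), and the call held without arrays numbered 1 (adjusted p = 0.0374), 2 (0.0463) or 3 (8.74e-05). In WT cells alone Hmox1 was 1.48-fold higher (0.56), called with the block (adjusted p = 0.0123) as the only gene of the 9, against 0.628% of probe sets. Without the block it was not called (limma unadjusted p = 0.129), where 0.0133% of probe sets were. The 1 gene of the 9 at an unadjusted p under 0.05 was then Sod1, which was lower (0.0308), against 4.36% of probe sets. In KO cells Hmox1 was 1.43-fold higher (0.52), again the only gene of the 9 called with the block (adjusted p = 0.0215, 0.301% of probe sets). None was called without the block, where 0.00884% of probe sets were, and 0 of 9 had an unadjusted p under 0.05 (3.66% of probe sets). Both of these single-genotype calls were lost without the arrays numbered 1 (adjusted p = 0.272 in WT and 0.601 in KO) or without those numbered 2 (0.321 and 0.454).

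**Figure D1:**
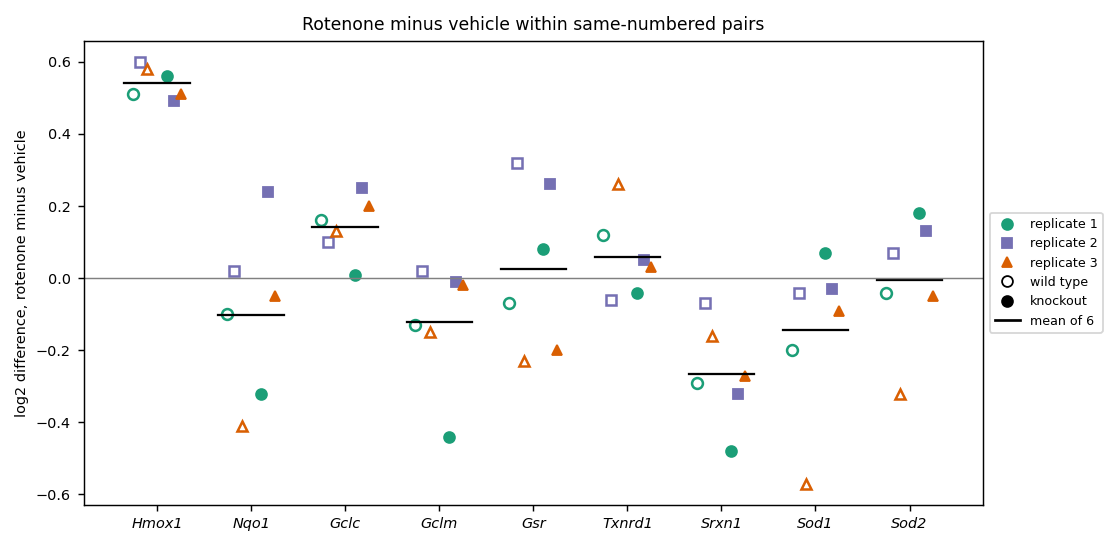
Rotenone minus vehicle on the log2 scale (vertical axis) for each of the 9 genes (horizontal axis), 1 point per same-numbered pair of arrays in WT (open) and KO cells (filled), with the mean of 6 pairs as a bar. All 6 points of Hmox1 lie between 0.49 and 0.60 and all 6 of Srxn1 between -0.48 and -0.07, while the points of Nqo1, Gsr, Sod1 and Sod2 fall on both sides of 0.

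Srxn1 encodes sulfiredoxin, which restores peroxiredoxins that have been over-oxidised by peroxide. Its log2 level was 9.85, 9.57 and 9.20 in WT vehicle and 9.56, 9.49 and 9.04 in WT rotenone. It was 9.84, 9.69 and 9.30 in KO vehicle and 9.36, 9.36 and 9.04 in KO rotenone. The groups overlapped and replicate 3 was the lowest in each, but every rotenone array was below its vehicle partner. Group means were 9.61 ± 0.28 in KO vehicle, 9.54 ± 0.32 in WT vehicle, 9.36 ± 0.28 in WT rotenone and 9.25 ± 0.19 in KO rotenone (SD, n = 3), an order in which no neighbours differed beyond their SDs.

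The mean difference of Srxn1 with rotenone was -0.27, or 1.20-fold lower (limma adjusted p = 0.697 without the block). With the block it fell (SE 0.06, interval -0.40 to -0.13, adjusted p = 0.0395), and the call was lost without arrays numbered 1 (adjusted p = 0.508), 2 (0.212) or 3 (0.0502). The 3 further probe sets of Srxn1 did not pass with the block. Their differences were -0.11 (adjusted p = 0.425), -0.15 (0.298) and 0.08 (0.688), so that the fall rests on 1 of the 4 probe sets.

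Gclc and Gclm encode the catalytic and the modifier subunit of glutamate cysteine ligase, the rate-limiting enzyme of glutathione synthesis. Gclc read 8.89, 8.97 and 9.01 in WT vehicle, 9.05, 9.07 and 9.14 in WT rotenone, 8.84, 8.80 and 8.83 in KO vehicle and 8.85, 9.05 and 9.03 in KO rotenone. The WT rotenone arrays did not overlap the WT vehicle arrays, the KO rotenone arrays lay above the KO vehicle arrays by as little as 0.01, and replicate 3 did not stand apart. All 6 pairs were higher with rotenone (0.01 to 0.25), but the mean difference of 0.14 (interval 0.02 to 0.27) did not pass (limma adjusted p = 0.569, or 0.274 with the block). Group means fell in the order 9.09 ± 0.05 in WT rotenone, 8.98 ± 0.11 in KO rotenone, 8.96 ± 0.06 in WT vehicle and 8.82 ± 0.02 in KO vehicle (SD, n = 3), and KO vehicle was the only group whose arrays lay wholly below those of the group next to it. The second Gclc probe set differed by 0.15 (adjusted p = 0.783), with 4 of 6 pairs higher.

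Gclm read 10.09, 9.81 and 10.11 in WT vehicle, 9.96, 9.84 and 9.96 in WT rotenone, 9.93, 9.58 and 10.04 in KO vehicle and 9.49, 9.58 and 10.03 in KO rotenone. These groups overlapped throughout, and KO rotenone held the lowest array. The modifier subunit thus had a mean difference of the opposite sign to the catalytic one, -0.12 with an interval of -0.36 to 0.12 (limma adjusted p = 0.855), though the difference between the subunits was not tested.

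Gsr encodes glutathione reductase, which returns oxidised glutathione to its reduced form with NADPH. It read 8.56, 8.54 and 9.39 in WT vehicle, 8.49, 8.86 and 9.16 in WT rotenone, 8.33, 8.42 and 9.61 in KO vehicle and 8.41, 8.68 and 9.41 in KO rotenone. Replicate 3 was the highest of its group each time, and the group means, between 8.79 and 8.84, were closer together than the SDs of 0.34 to 0.71 (n = 3). The rotenone difference was 0.03 with an interval of -0.53 to 0.58 (limma adjusted p = 0.991), and the second Gsr probe set gave -0.02 (0.991).

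Txnrd1 encodes the cytosolic thioredoxin reductase, which passes electrons from NADPH to thioredoxin. It read 11.82, 11.76 and 11.57 in WT vehicle, 11.95, 11.71 and 11.83 in WT rotenone, 11.54, 11.62 and 11.60 in KO vehicle and 11.50, 11.67 and 11.62 in KO rotenone. All 6 KO arrays lay at or below 11.67, whereas 5 of the 6 WT arrays lay above it. The rotenone difference was 0.06 (interval -0.09 to 0.21, limma adjusted p = 0.891), and the further probe sets gave 0.06 and -0.04 (adjusted p = 0.943 and 0.951).

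Nqo1 encodes NAD(P)H quinone dehydrogenase, which reduces quinones in a single step that yields no semiquinone, and is widely used as a readout of NRF2. It read 8.65, 8.67 and 8.93 in WT vehicle, 8.55, 8.68 and 8.52 in WT rotenone, 8.15, 7.81 and 9.26 in KO vehicle and 7.83, 8.05 and 9.21 in KO rotenone. The KO groups held both the highest and the lowest arrays, with SDs of 0.76 and 0.74 against 0.16 and 0.09 in the WT groups (n = 3). The rotenone difference was -0.10 with an interval of -0.67 to 0.46 (limma adjusted p = 0.959), and 4 of 6 pairs were lower.

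Sod1 read 10.75, 10.67 and 10.86 in WT vehicle, 10.55, 10.63 and 10.29 in WT rotenone, 10.76, 10.65 and 10.65 in KO vehicle and 10.83, 10.62 and 10.56 in KO rotenone. The WT rotenone arrays lay below the WT vehicle arrays without overlap, while the KO groups overlapped. The difference in WT cells, -0.27 (interval -0.51 to -0.03), had an unadjusted p of 0.0308 and did not pass (limma adjusted p = 1.0, or 0.385 with the block). The second Sod1 probe set went the other way in WT cells (0.20, limma unadjusted p = 0.121). Over both genotypes the main probe set differed by -0.14 and the second by 0.13 (adjusted p = 0.724 and 0.792).

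Sod2 read 10.20, 10.00 and 10.40 in WT vehicle, 10.16, 10.07 and 10.08 in WT rotenone, 9.95, 10.18 and 10.59 in KO vehicle and 10.13, 10.31 and 10.54 in KO rotenone. All groups overlapped, with a mean rotenone difference of -0.01 (interval -0.25 to 0.24, limma adjusted p = 0.997) and -0.05 and -0.06 on the further probe sets (adjusted p = 0.951 and 0.904).

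**Figure D2:**
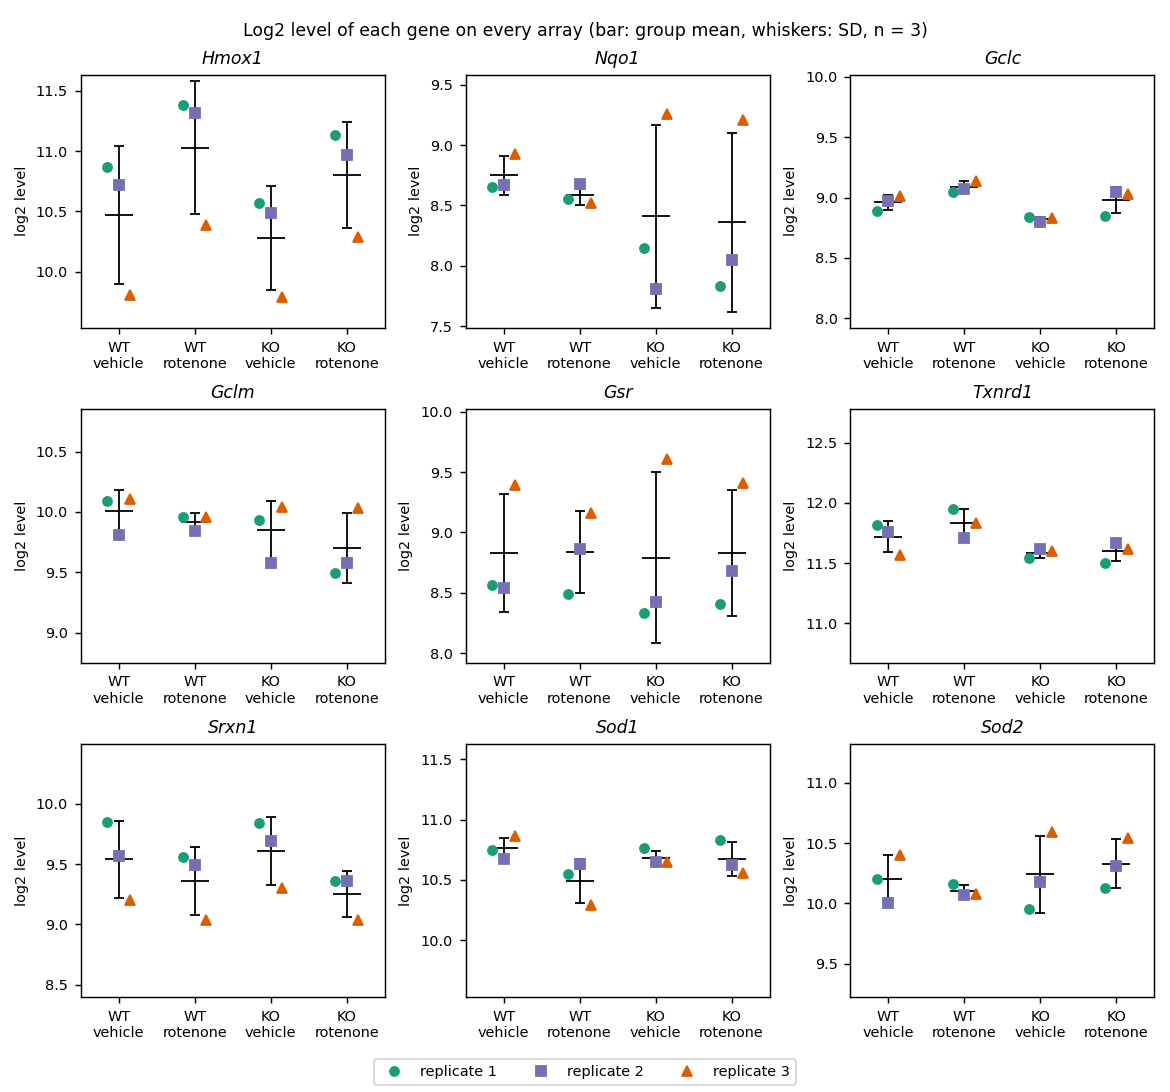
Log2 level of the main probe set of each of the 9 genes (vertical axis, 1 span in all panels, placed per gene) on every array of the 4 groups (horizontal axis), with replicates 1, 2 and 3 as circles, squares and triangles, the group mean as a bar and whiskers of 1 SD (n = 3). The triangles of replicate 3 lie lowest in every group of Hmox1 and Srxn1 and highest in every group of Gsr, and those of Nqo1 stand far above the other KO arrays, at 9.26 and 9.21.

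Whether the rotenone response differed between genotypes was asked by the interaction of genotype and rotenone. None of the 9 genes passed with or without the block (limma, 0 of 9 at an unadjusted p under 0.05), and none of all probe sets did either (82 at an unadjusted p under 0.05 without the block and 295 with it). For Hmox1 the difference between the KO and WT responses was -0.04, with an interval of -1.10 to 1.02 without the block and -0.31 to 0.23 with it. For Srxn1 it was -0.18 (interval -0.45 to 0.09 with the block) and for Sod1, the largest of the 9, 0.26 (-0.06 to 0.57). With the block these intervals leave room for differences of the size of the responses themselves in Srxn1 and Sod1. Without the block the interval of Hmox1 also leaves room for a difference of the size of its response.

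The second comparison asked how the KO cells differed from WT cells. Most of these transcripts were estimated lower in KO cells, by small amounts, and Nqo1 had opposite differences on different replicate numbers. Over the mean of both treatments 7 of the 9 genes were below 0, with a median of -0.13 against 0.01 for all genes. None passed without the block (limma), where 0.00884% of probe sets were called, nor with it, where 0.552% were. The unadjusted p was under 0.05 for 1 of 9 without the block (5.99% of probe sets) and 3 with it (13.1%). None passed in vehicle alone (0.00442% of probe sets called, 0.0177% with the block) or in rotenone alone (0.00442% and 0.0398%). At an unadjusted p under 0.05 there were 0 of 9 genes in vehicle (1.04% of probe sets) and 1 in rotenone (5.57%) without the block.

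Hmox1 and Gclc were lower in KO cells in 6 of 6 same-numbered pairs. The mean difference was -0.21 for Hmox1 (interval with the block -0.34 to -0.07, adjusted p = 0.19) and -0.13 for Gclc (-0.25 to 0.00, adjusted p = 0.393). Txnrd1 was lower in 5 of 6 pairs on each of its 3 probe sets. Its main one differed by -0.18 (interval without the block -0.33 to -0.03, limma unadjusted p = 0.0202, adjusted p = 0.809, or 0.306 with the block). Gclm was lower in 5 of 6 pairs as well (-0.19, interval without the block -0.43 to 0.05, adjusted p = 0.817, or 0.333 with the block). No gene of this group met the threshold, and the 4 pair counts share the same 12 arrays.

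For the remaining genes the KO minus WT difference of the main probe set was near 0 or above it. Without the block it was -0.02 for Srxn1 (interval -0.32 to 0.28), -0.02 for Gsr (-0.58 to 0.53), 0.05 for Sod1 (-0.12 to 0.22) and 0.13 for Sod2 (-0.12 to 0.38), with limma adjusted p of 0.846 or more. The second Gsr probe set differed by -0.18 (-0.66 to 0.29, adjusted p = 0.88). Sod2, the mitochondrial dismutase, was higher in KO cells in 4 of 6 pairs.

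Nqo1 went in opposite directions on different replicate numbers. On arrays numbered 1 and 2 the WT cells read 8.65, 8.67, 8.55 and 8.68 and the KO cells 8.15, 7.81, 7.83 and 8.05, with no overlap. On arrays numbered 3 the WT cells read 8.93 in vehicle and 8.52 in rotenone and the KO cells 9.26 and 9.21, again with no overlap but with KO above WT. The 4 paired differences of numbers 1 and 2 lay between -0.86 and -0.50, and those of number 3 were 0.33 and 0.69. The mean of all 6, -0.28 (interval -0.85 to 0.28, limma adjusted p = 0.854), therefore describes neither set.

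A test of this difference was chosen after these values had been seen, and so describes it rather than lending it independent weight. The KO minus WT difference of Nqo1 on number 3 exceeded that on numbers 1 and 2 by 1.18 on the log2 scale, or 2.27-fold (SE 0.17, interval 0.83 to 1.53, limma adjusted p = 0.000774). Nqo1 was the only gene of the 9 called, against 1.54% of all probe sets. Leaving out each of the 12 arrays in turn gave 1.00 to 1.37 with adjusted p of 0.000466 to 0.0178. Among the main probe sets Gsr had the next largest value, 0.38 (interval 0.03 to 0.73, adjusted p = 0.319). Both Gsr probe sets also had KO below WT on all 4 pairs of numbers 1 and 2 and above it on both pairs of number 3. The pairs of numbers 1 and 2 lay between -0.23 and -0.08 on the main and between -0.46 and -0.23 on the second probe set. Those of number 3 were 0.21 and 0.24 on the main and 0.27 and 0.06 on the second.

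Restricted to arrays numbered 1 and 2, Nqo1 had a KO minus WT difference of -0.68 in each treatment. With the block the limma adjusted p was 9.46e-06 over both treatments (3.43% of probe sets called), 0.00358 in vehicle (1.05%) and 0.00304 in rotenone (1.53%). Without the block it was 0.00151 over both treatments (1.84%), 0.0525 in vehicle (0.398%) and 0.0427 in rotenone (0.57%). Nqo1 was the only gene of the 9 called in each of these fits that called any. Number 3 holds a single array per group, so the difference there has no replicate of its own within a group.

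**Figure D3:**
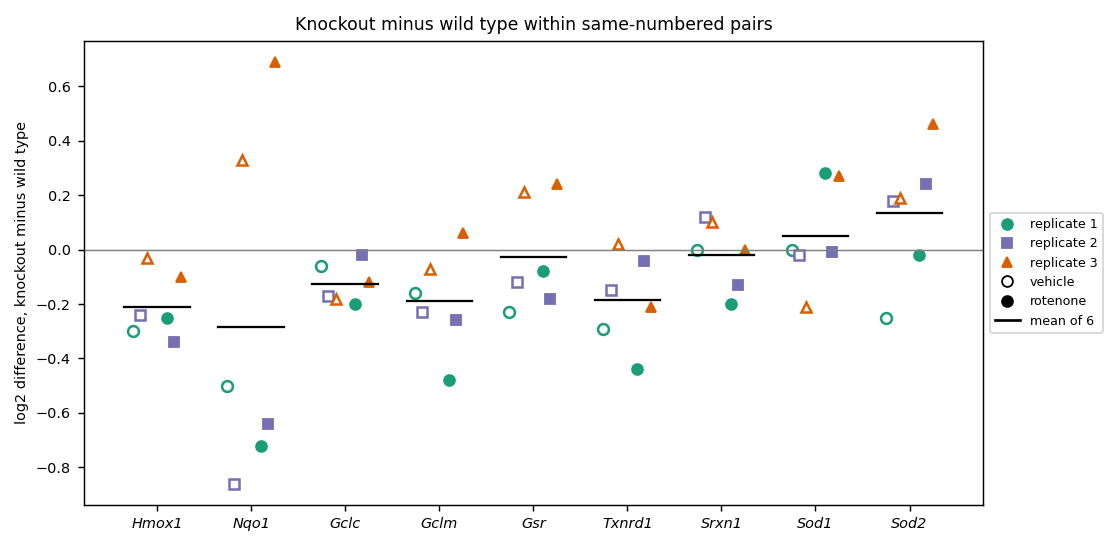
Knockout minus wild type on the log2 scale (vertical axis) for each of the 9 genes (horizontal axis), 1 point per same-numbered pair of arrays in vehicle (open) and rotenone (filled), with the mean of 6 pairs as a bar. The circles and squares of Nqo1 (replicates 1 and 2) lie between -0.86 and -0.50 and its triangles (replicate 3) at 0.33 and 0.69, while all 6 points of Hmox1 and of Gclc lie below 0.

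The third comparison set the arrays numbered 3 against those numbered 1 and 2, with the groups accounted for. This contrast is balanced over genotype and treatment. Gsr, Nqo1 (mainly in KO cells), Sod2 and Gclm were higher on number 3 and Hmox1 and Srxn1 lower, which makes 6 of 9 genes called (limma). Over all probe sets 23.9% were called, 12.6% higher and 11.3% lower. The median of the 9 genes was 0.06 and that of all genes -0.04.

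Gsr was 0.86 higher, or 1.81-fold (SE 0.10, limma adjusted p = 1.53e-05), with means of 9.39 ± 0.18 on number 3 against 8.45 ± 0.10 and 8.62 ± 0.19 on numbers 1 and 2 (SD, n = 4), and no overlap. Its second probe set rose by 0.71 (adjusted p = 0.000122). Nqo1 was 0.68 higher (SE 0.18, adjusted p = 0.0114), but this mean joins genotypes that differed. The KO arrays of number 3 read 9.26 and 9.21 against 7.81 to 8.15 on numbers 1 and 2. The WT arrays of number 3 read 8.93 and 8.52 against 8.55 to 8.68. The WT rotenone array of number 3, at 8.52, was below the other arrays of its group. Sod2 was 0.28 higher (SE 0.09, adjusted p = 0.0338) and Gclm 0.25 higher (SE 0.08, adjusted p = 0.0396). The Sod2 call rests on 1 of its 3 probe sets. The means of its further probe sets, which were not called, were 9.82 on number 3 against 9.63 and 9.56, and 6.54 against 6.64 and 6.47.

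Hmox1 was 1.81-fold lower on number 3 (-0.86, SE 0.07, limma adjusted p = 3.46e-07), with 10.07 ± 0.32 against 10.99 ± 0.35 and 10.88 ± 0.36 (SD, n = 4). Every array numbered 3, rotenone included, read below every array of numbers 1 and 2. Srxn1 was 1.36-fold lower (-0.45, SE 0.07, adjusted p = 0.000212), and 2 of its further probe sets fell as well (-0.46, adjusted p = 0.000108, and -0.25, adjusted p = 0.0159) while the other did not pass (-0.15, 0.197). Gclc (0.06, adjusted p = 0.514), Txnrd1 (-0.04, 0.731) and Sod1 (-0.10, 0.39) did not pass. The glutathione-cycle gene Gsr and the heme-degrading gene Hmox1 thus differed by the same fold in opposite directions on the same arrays.

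The calls of Gsr, Hmox1 and Srxn1 held when any array was left out. Without the KO vehicle or the KO rotenone array of number 3 only these 3 of 9 genes passed, and Nqo1 was then 0.48 (limma adjusted p = 0.076) or 0.49 (0.0608) higher. Gclm was also lost without the WT vehicle array 2 or 3, the KO vehicle array 2 or the KO rotenone array 1, with adjusted p of 0.0664 to 0.0807. Sod2 was also lost without the WT vehicle array 2 or 3, the KO vehicle array 1 or 2 or the KO rotenone array 1, with adjusted p of 0.05 to 0.102.

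**Figure D4:**
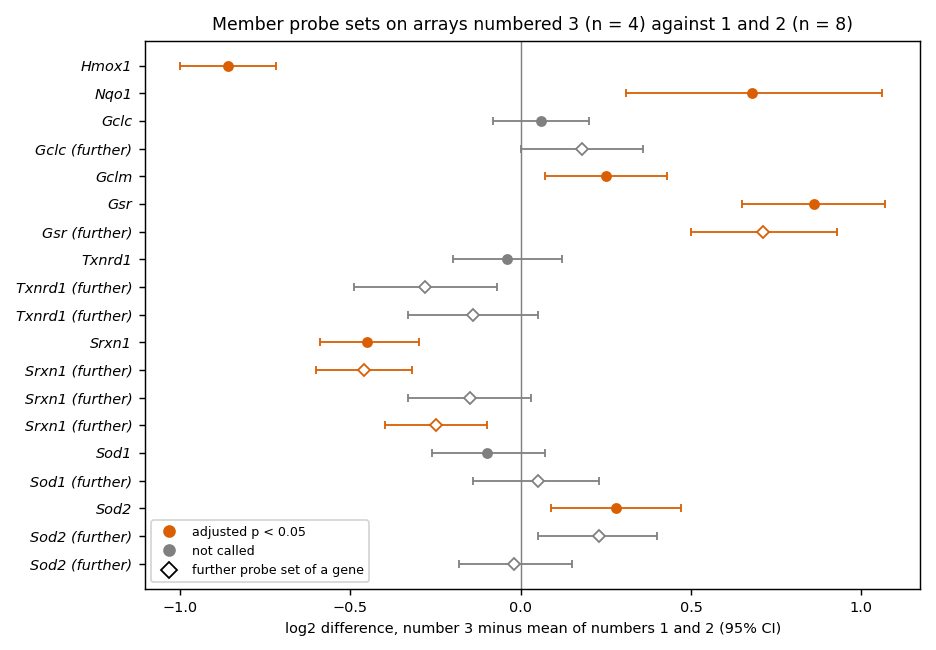
Difference between the arrays numbered 3 (n = 4) and the mean of those numbered 1 and 2 (n = 8) on the log2 scale (horizontal axis) for the 19 probe sets (vertical axis), with 95% intervals from the fit, filled circles for main and open diamonds for further probe sets, and orange for an adjusted p under 0.05. Hmox1 and all 4 Srxn1 probe sets lie below 0, of which 3 of Srxn1 passed, and both Gsr probe sets lie above it, with Hmox1 at -0.86 and the main Gsr probe set at 0.86.

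Some markers of other cell types were also higher on the arrays numbered 3. Of 14 leukocyte and macrophage markers, 8 were higher on number 3, where 12.6% of all probe sets were higher and 11.3% lower. Among the 8 were Lyz2 (2.26), Cd68 (0.53) and Cd14 (0.53), which mark macrophages and were named after their values were seen. The 6 not called were Ptprc (0.13), Itgam (0.07), Aif1 (-0.03), Cd79a (-0.11), Laptm5 (-0.13) and Cd3e (-0.15). The mean level of that list was 6.88 to 6.97 on number 3 and 6.44 to 6.66 on the other arrays, and none of the 14 lay above the 75th percentile of mean levels. Of 9 epithelial markers 3 were higher (Krt8, Krt18 and Krt19, by 0.73, 1.03 and 1.04), with a list mean of 7.12 to 7.43 against 6.80 to 7.04. None of 9 endothelial and none of 6 erythroid markers was called (limma), with list means of 6.09 to 6.50 against 6.06 to 6.36 and of 6.30 to 6.48 against 6.32 to 6.64. The fibroblast list held 11.59 to 11.78 on number 3 and 11.48 to 11.81 on the others, with 3 of 13 markers higher and 4 lower. The part of these markers in the differences of Gsr, Nqo1, Hmox1 and Srxn1 was not tested.

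The regulators of the pathway were read from a list of 17 genes, of which 16 were measured. None was called for rotenone without the block (limma), while 3 rose and 2 fell with it, where 1.33% of all probe sets were higher and 1.13% lower, and their median was 0.18 against 0.03 for all genes. Sqstm1, whose product p62 draws KEAP1 into autophagy, rose by 0.44 with the block (adjusted p = 0.00257). It read 12.33, 12.24 and 11.52 in WT vehicle, 12.80, 12.82 and 11.85 in WT rotenone, 12.40, 12.12 and 11.34 in KO vehicle and 12.73, 12.72 and 11.67 in KO rotenone. As with Hmox1, each rotenone array was above its vehicle partner and replicate 3 was the lowest of each group.

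Of the small MAF partners of NRF2, Maff rose by 0.47 and Mafg by 0.32 with the block (limma adjusted p = 0.0194 and 0.0457), and Mafk differed by 0.07 (0.687). Nfe2l2 itself differed by 0.23 (adjusted p = 0.0831 with the block), Keap1 by -0.16 (0.232) and Bach1, a repressor of Hmox1, by 0.14 (0.478). The genes that fell with the block were Syvn1, an ER ubiquitin ligase that can degrade NRF2 (-0.45, adjusted p = 0.00408), and Trim16, a ubiquitin ligase that binds p62 (-0.43, 0.00297). Between genotypes, over both treatments, none of the 16 passed without the block (0.00884% of all probe sets called) or with it (0.552%). On number 3, 4 of the 16 were lower and none higher, where 11.3% of all probe sets were lower and 12.6% higher. The 4 were Nfe2l2 (-0.70, adjusted p = 3.85e-06), Sqstm1 (-0.92, 3.09e-07), Maff (-0.36, 0.0229) and Trim16 (-0.50, 0.000125).

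Nfe2l2 read 10.96, 10.83 and 10.09 in WT vehicle, 11.20, 11.14 and 10.52 in WT rotenone, 10.59, 10.74 and 10.05 in KO vehicle and 10.92, 10.74 and 10.10 in KO rotenone. Replicate 3 was the lowest of each group, and the KO rotenone array 2 equalled its vehicle partner where the other rotenone arrays were above theirs.

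In the wider lists of the pathway, called genes were read against the 2.46% of all probe sets called for rotenone with the block. Of 25 glutathione genes 2 rose and 1 fell with the block, of 14 thioredoxin and peroxiredoxin genes 1 fell, of 9 NADPH genes 1 rose, of 13 heme, iron and metal genes 1 rose and of 20 detoxification genes none passed. Their medians lay between -0.05 and 0.08. Txnip, an inhibitor of thioredoxin, fell 5.33-fold and was the only gene of these lists called without the block as well (-2.41, limma adjusted p = 0.000413). Chac1, an enzyme that degrades glutathione, rose 1.89-fold (0.92, adjusted p = 5.77e-05 with the block), Mt1, a metallothionein, rose 1.43-fold (0.51, 0.0148) and Glrx, a glutaredoxin, fell 1.41-fold (-0.50, 0.0226).

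Chac1 read 10.04, 9.93 and 9.13 in WT vehicle, 11.09, 11.22 and 9.63 in WT rotenone, 9.83, 9.76 and 8.87 in KO vehicle and 10.81, 10.66 and 9.68 in KO rotenone. Each rotenone array was above its partner, and replicate 3 was again the lowest of its group, as with Hmox1. Between genotypes 1 of the 25 glutathione genes and none of the other 4 lists passed with the block, against 0.552% of all probe sets. It was Mgst3, a microsomal glutathione transferase, which was lower in KO cells (-0.48, limma adjusted p = 0.0463). On number 3, higher and lower genes were mixed, with 4 and 6 of the glutathione list, 3 and 2 of the thioredoxin list, 4 and 1 of the NADPH list, 4 and 3 of the heme and metal list and 2 and 4 of the detoxification list. These lists have 25, 14, 9, 13 and 20 measured genes, and over all probe sets 12.6% were higher and 11.3% lower.

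The genes whose pattern was most like each of the 9 were ranked by Pearson's r over the 12 arrays, after the mean of each replicate number had been subtracted, and are given as a description. For Hmox1 they were Vldlr (0.97), Thbd (0.96) and Trib3 (0.96), for Gclc Slc1a4 (0.98), Sntb2 (0.93) and Asns (0.92), and for Srxn1 Atg101 (0.97), Tubb4b (0.95) and Abhd17a (0.93). For Nqo1 they were Ube2c (0.99), Pbk (0.96) and Tspo (0.95), for Gsr H2az1 (0.96), Mpg (0.92) and Aaas (0.92), and for Gclm Mob2 (0.94), Rcl1 (0.94) and Aurka (0.93). For Txnrd1 they were Tpi1 (0.94), Psat1 (0.91) and Csgalnact1 (0.91), for Sod1 Ubl7 (0.95), Niban2 (0.90) and Rab13 (0.89), and for Sod2 Rps27l (0.93), Srp14 (0.92) and Ndufc2 (0.90). Without the subtraction 1 of the 3 genes stayed for Hmox1 (Trib3) and for Sod1 (Rab13), and none for the other 7. Apart from Trib3 and Rab13, these neighbours were thus among the top 3 on the centred values alone.

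Among the 9 genes, measured the same way, Hmox1 went with Gclc (r = 0.82) and against Srxn1 (-0.74), and Nqo1 went with Gclm (0.78) and Gsr (0.70). With the deposited values as they stand the same pairs gave 0.22, 0.41, 0.82 and 0.81, so the relation of Hmox1 with Srxn1 changes sign with the centring on replicate number. All of these values share the same 12 arrays.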

How the data were processed

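Fibroblast RNA was hybridised to 12 Affymetrix arrays. Values deposited on a log2 scale were used. Per the submitters' processing notes they come from RMA, with its version not given in the sources used here. It normally forces the arrays to a common distribution, so a change shared by most transcripts would not show. No detection calls were used here, so signal over background is unknown, and precision is limited by the number of arrays. Of 22690 probe sets, 64 array controls were left out.

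The two-sided tests used lmFit and eBayes of limma 3.58.1 under R 4.3.3, in a fit of 4 group means over 12 arrays, with Benjamini-Hochberg adjustment over the 22626 probe sets and a threshold of 0.05. All adjusted p-values come from limma. The fitting was tested on simulated data. The alternatives were a block for the replicate number, a filter on dim probe sets, a further quantile normalization, trended and robust eBayes, the mean over the probe sets of a gene, and arrays left out. Whether equal numbers pair the arrays was checked on deviations from the group means: the 18 same-numbered pairs correlated at r = 0.289 to 0.829, and within numbers 1 and 2 at 0.289 to 0.554 against -0.053 to 0.476 between number 1 and number 2. The pairing therefore comes from the data, and mostly from number 3.

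The genes, lists and tests were chosen with earlier results of these data known. Beside the 9 genes and Htra2, the text names 7 regulators, up to 8 list genes of largest difference among those called per comparison, and for each gene the 3 genes of highest r among probe sets at or above the median level. Sod3 and Ptgr1 were named in addition, after their values had been seen. Promoters are RefSeq's (GRCm38.p6).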

Additional observations from a re-analysis of the deposited data

Results flagged for a closer look

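The KO minus WT difference of Nqo1 on arrays numbered 3 exceeded that on arrays numbered 1 and 2 by 1.18 on the log2 scale (SE 0.17, limma adjusted p = 0.000774). It was flagged because the same contrast has opposite signs on different replicate numbers, in both treatments. The KO cells were lower on all 4 pairs of numbers 1 and 2 (-0.86 to -0.50) and higher on both pairs of number 3 (0.33 and 0.69). The test was chosen after the values had been seen, and it called 1.54% of all probe sets. Nqo1 was not alone in this change of sign. Both Gsr probe sets had it, as did Sod3 and Ptgr1 of the detoxification list, named after their values were seen. Sod3 read 9.46, 9.06 and 9.56 in WT vehicle and 8.31, 8.63 and 10.21 in KO vehicle. With rotenone Sod3 read 9.10, 9.07 and 9.22 in WT and 8.42, 8.28 and 10.07 in KO cells. On number 3, 8 of 14 leukocyte and macrophage markers and 3 of 9 epithelial markers were also higher, against 12.6% of all probe sets. The part of these markers in the difference was not tested.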

How the results depend on the processing

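The replicate block decided most calls. For the mean rotenone effect 0 of 9 genes passed without it, 2 with it, 1 on arrays numbered 1 and 2 alone and 1 with the block when number 1, 2 or 3 was left out. In WT cells and in KO cells the count was 0 without the block, 1 with it and 1 with the block and without number 3. For KO minus WT it was 0 both without and with the block, and without number 3 it was 1 with the block in vehicle, in rotenone and over both, and 1 without the block in rotenone and over both. Over all probe sets the block moved the calls from 49 to 557 for the mean rotenone effect, from 3 to 142 in WT, from 2 to 68 in KO, from 1 to 4 and from 1 to 9 for genotype in vehicle and rotenone, and from 2 to 125 for genotype over both. The block changed no call of the interaction (0 and 0) or of Htra2.

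Without the block, leaving out any 1 array gave 0 of 9 genes in all 7 group comparisons. For number 3 against numbers 1 and 2 it gave 3 to 6 of 9 genes. Over all probe sets these fits called 3749 to 5214, against 5409 with every array kept. An F test over the 3 numbers called 4 of the 9 genes (Hmox1, Nqo1, Srxn1 and Gsr). No share of all probe sets is given for the F test, so its 4 calls have no background to be read against. On number 3 a further quantile normalization took Gclm to 0.21 (limma adjusted p = 0.0954) and Sod2 to 0.23 (0.0711), and the mean over probe sets took Sod2 to 0.16 (0.0734). The cause was not tested. In the settings run, no value changed sign while past the threshold.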
